A study of Mus musculus with 12 samples.

Results

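The genes of the tumour necrosis factor (TNF) and TNF receptor superfamilies were examined for peaks of MOF, the lysine acetyltransferase (KAT8) that acetylates histone H4 at lysine 16, in visceral white adipose tissue of the mouse. They were taken from the GENCODE mouse M21 annotation as the autosomal protein-coding genes whose symbol begins with Tnfsf or Tnfrsf, together with Tnf, Lta, Ltb, Ltbr, Cd27, Cd40, Cd70, Fas and Fasl. This gave 41 genes out of 20807 autosomal protein-coding genes, 17 of them ligands and 24 of them receptors. The rule reads gene symbols and positions. Of the ligand genes, Tnfsfm13 is a read-through gene whose annotation spans Tnfsf12 and Tnfsf13.

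The series compared C57BL/6 mice with both copies of Mof (Mof+/+) with heterozygotes carrying a single copy in the whole body (Mof+/-). The animals were 8 weeks old and received a normal diet, and the labels describe 12 chromatin immunoprecipitation sequencing (ChIP-seq) libraries in 6 groups of 2: MOF, histone H3 and input DNA in each genotype. One MOF peak list per genotype was analysed, with 19773 peaks for Mof+/+ and 731 for Mof+/-, of which 19579 and 712 lay on autosomes. The lists carry no replicate values, and how far 2 animals of a genotype differ is therefore not known. The chromatin came from whole tissue, in which weaker binding per cell and fewer cells of a type cannot be told apart.

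The TNF ligands are trimeric proteins, most of them held in the cell membrane and some released by proteases. Their receptors share cysteine-rich repeats outside the cell, and pass the signal on through TRAF adaptors to NF-kB and MAP kinases or, in receptors with a death domain, to caspases. In adipose tissue TNF is known as a cytokine of inflamed fat that impairs insulin action, whereas much of the remaining family acts among lymphocytes and myeloid cells.

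A promoter peak was counted for a gene when any base of a peak lay within 1000 bp of an annotated start site, and a gene-body peak when a peak shared at least 1 bp with the gene. In Mof+/+ tissue 16 of the 41 genes (39.0%) had a promoter peak, against 42.7% of all autosomal protein-coding genes, so the family as a whole lay near the background. With a window of 3 kb the order turned, to 48.8% of the family against 44.6% of all genes. The genes with such a peak included the founding ligands Tnf, Lta and Ltb and both TNF receptors, Tnfrsf1a and Tnfrsf1b. A gene-body peak was found in 21 of 41 (51.2%, background 43.2%), and the same 21 genes made up all those with a peak of either kind (background 45.5%). In Mof+/- tissue no family gene had a promoter peak (background 1.37%) or a gene-body peak (background 1.56%).

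Promoter windows of 6 genes with a peak are shown, with 13 to 47 CG pairs within 500 bp of the start: the ligand and the receptor with the highest enrichment (Ltb and Cd27), Tnf, the most CG-rich start with a window under its peak (Tnfrsf1b) and further CG-poor starts (Tnfsf10 and Tnfrsf18). Each runs from 250 bases before to 30 bases into the transcript and was read from RefSeq for GRCm38.p6, in which 32 of the 41 genes had a window. Capitals mark a match to the NF-kB consensus in Ltb and a TATA box (TATAAA) in Tnf, and windows without capitals held neither on either strand.
Ltb (chr17:35194257-35194536, plus strand): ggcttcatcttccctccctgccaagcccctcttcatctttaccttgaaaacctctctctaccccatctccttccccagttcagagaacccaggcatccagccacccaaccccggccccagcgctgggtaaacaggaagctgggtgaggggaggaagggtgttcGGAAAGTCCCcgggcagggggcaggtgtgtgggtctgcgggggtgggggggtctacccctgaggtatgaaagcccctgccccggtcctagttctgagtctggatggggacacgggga
Tnf (chr17:35201978-35202257, minus strand): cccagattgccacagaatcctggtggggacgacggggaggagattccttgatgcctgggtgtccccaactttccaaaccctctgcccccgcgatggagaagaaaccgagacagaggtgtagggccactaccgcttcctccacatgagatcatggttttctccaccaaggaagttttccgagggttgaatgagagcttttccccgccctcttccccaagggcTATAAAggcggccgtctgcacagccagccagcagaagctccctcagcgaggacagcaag
Tnfsf10 (chr3:27316827-27317106, plus strand): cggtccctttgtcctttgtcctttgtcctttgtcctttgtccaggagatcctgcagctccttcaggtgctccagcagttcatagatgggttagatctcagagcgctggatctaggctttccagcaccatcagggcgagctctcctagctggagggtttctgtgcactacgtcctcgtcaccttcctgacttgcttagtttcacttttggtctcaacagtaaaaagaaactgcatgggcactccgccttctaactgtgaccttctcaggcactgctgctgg
Cd27 (chr6:125236998-125237277, minus strand): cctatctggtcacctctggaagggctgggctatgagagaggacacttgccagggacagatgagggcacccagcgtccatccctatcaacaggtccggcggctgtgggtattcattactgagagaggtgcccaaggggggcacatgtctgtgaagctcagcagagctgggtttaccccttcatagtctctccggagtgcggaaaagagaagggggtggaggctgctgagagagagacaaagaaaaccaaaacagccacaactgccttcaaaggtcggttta
Tnfrsf1b (chr4:145246841-145247120, minus strand): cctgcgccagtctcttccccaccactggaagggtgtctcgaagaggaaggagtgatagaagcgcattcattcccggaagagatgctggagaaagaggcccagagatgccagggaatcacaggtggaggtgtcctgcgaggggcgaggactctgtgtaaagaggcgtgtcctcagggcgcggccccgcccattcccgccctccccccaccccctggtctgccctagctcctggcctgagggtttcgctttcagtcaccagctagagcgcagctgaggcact
Tnfrsf18 (chr4:156026072-156026351, plus strand): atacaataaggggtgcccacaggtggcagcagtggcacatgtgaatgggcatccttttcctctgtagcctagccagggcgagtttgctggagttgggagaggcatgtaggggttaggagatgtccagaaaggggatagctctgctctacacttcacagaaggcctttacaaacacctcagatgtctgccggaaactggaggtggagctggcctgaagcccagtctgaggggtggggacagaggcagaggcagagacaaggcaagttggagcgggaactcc

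The NF-kB match of Ltb began 87 bases before the RefSeq start, and the TATA box of Tnf 29 bases before its start. Over the family, 4 of 36 windows (11.1%) held the NF-kB consensus on either strand, against 8.02% of 31396 autosomal windows, and 6 of 36 (16.7%) held TATAAA or its complement, against 13.1%. Besides Ltb, the NF-kB match was found at Tnfrsf8, Tnfrsf9 and Tnfrsf25. The TATA match was found at Tnf, Lta, Tnfsf11, Tnfsf18, Tnfrsf17 and Tnfrsf23. These matches are letters in a window and were not tested as sites. The genes with the most and the fewest CG pairs among those with a promoter peak were Tnfrsf9 and Tnfrsf26. The windows of Tnfrsf9 belong to starts away from its peak, and Cd40, Cd70, Tnfrsf10b, Tnfrsf11b, Tnfrsf22, Tnfrsf26, Tnfsf12, Tnfsf4 and Tnfsf9 had none.

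Among the ligands, 5 of 17 (29.4%) had a Mof+/+ promoter peak: Ltb, Tnf, Lta, Tnfsf8 and Tnfsf10. Ltb, which encodes lymphotoxin beta, the membrane anchor of the lymphotoxin heterotrimer, had the highest fold enrichment of the family. Its peak (chr17:35192897-35197127) was 4231 bp wide and covered the whole gene. The summit lay 469 bp downstream of the nearest start, in the coding sequence, where 30 fragments gave a fold enrichment over input of 6.86 (95% counting interval 4.70 to 9.69, −log10 q 13.8). This placed the Ltb peak at percentile 97.2 of the promoter peaks of all genes by fold enrichment. The intervals cover counting error only and not the variation between animals.

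Tnf, the cytokine that gives the family its name, carried a promoter peak (chr17:35201570-35202134) with 20 fragments at a summit in its untranslated region, a fold enrichment of 4.14 (interval 2.61 to 6.29) and a −log10 q of 5.29. A further peak (chr17:35200062-35200936) with a fold enrichment of 3.83 lay inside the gene, 1068 bp from the nearest start. Lta, which encodes lymphotoxin alpha, the soluble relative of TNF, had a peak in its first part (chr17:35204640-35205248) with a fold enrichment of 3.43. The genes Ltb, Tnf and Lta are neighbours, with gaps of 3061 and 1158 bp between them, and all 3 had a promoter peak of their own. No peak was shared between them.

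**Figure D1:**
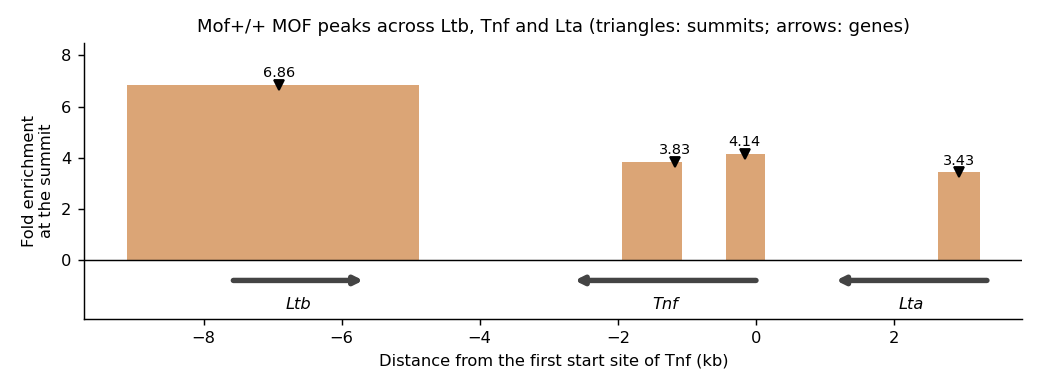
Mof+/+ MOF peaks across the neighbouring ligand genes Ltb, Tnf and Lta, plotted as bars whose width is the extent of the peak (kb from the first start site of Tnf) and whose height is its fold enrichment over input at the summit. Triangles mark summits and arrows the genes in their direction of transcription. The peak of Ltb (6.86) spans its gene, while Tnf holds 2 peaks (3.83 and 4.14) and Lta 1 (3.43).

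The remaining ligand promoter peaks had lower fold enrichments. Tnfsf8, which encodes the CD30 ligand of T cells, had a peak (chr4:63860211-63860510) of 14 fragments and fold enrichment 2.85 (interval 1.65 to 4.66), with its near edge 837 bp downstream of the start. Tnfsf10, which encodes the death ligand TRAIL, had the lowest value among ligands, 2.74 (interval 1.66 to 4.30), from 17 fragments over a higher input background at a 267 bp peak (chr3:27316974-27317240) across its start, with a −log10 q of 2.07. Tnfsfm13 had a peak (chr11:69681725-69682649) only in its body, 13160 bp from its nearest start. That peak overlapped the start of Senp3, and its summit lay in the untranslated region of Senp3.

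No Mof+/+ peak lay within 1000 bp of a start or in the body of the 11 other ligand genes. These were Cd70 and Fasl, the ligands of CD27 and of the death receptor FAS, the T cell costimulators Tnfsf4, Tnfsf9, Tnfsf14, Tnfsf15 and Tnfsf18, the osteoclast factor Tnfsf11 (RANKL), Tnfsf12 (TWEAK), and the B cell survival factors Tnfsf13 (APRIL) and Tnfsf13b (BAFF). Tnfsf13 was the nearest to having a promoter peak, at 2905 bp, and Tnfsf13b the farthest, at 800192 bp. Ligand clusters without a peak at any gene were Tnfsf4, Tnfsf18 and Fasl on chromosome 1 and Tnfsf9, Cd70 and Tnfsf14 on chromosome 17.

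Among the receptors, 11 of 24 (45.8%) had a Mof+/+ promoter peak, with fold enrichments between 2.56 and 4.55. By role, a promoter peak was present at 4 of 6 T cell costimulatory receptors, 2 of 5 receptors with a death domain, 2 of 4 receptors of B cells, 0 of 3 decoys and 3 of 6 others, against 42.7% of all genes. In groups this small, a single gene moves the share far, and no group is set apart from the others by these counts.

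Of the costimulatory receptors, Cd27 had the highest value in the class. Its main peak (chr6:125236140-125237511) held 22 fragments at the summit, a fold enrichment of 4.55 (interval 2.93 to 6.79) and a −log10 q of 6.57. Cd27 carried 3 peaks in its body in all, of which 2 counted as promoter peaks. Their summits also lie in an intron of Vamp1, and the genes that overlap here cannot be told apart. Tnfrsf14, which encodes the receptor HVEM, also had 2 promoter peaks, the stronger one upstream of the gene (chr4:154929256-154929847, fold enrichment 4.09, summit −816 bp from the start). Tnfrsf18, which encodes GITR, had a peak across its start (chr4:156026033-156026469) with 20 fragments and a fold enrichment of 3.99. Tnfrsf9, which encodes 4-1BB, had a peak (chr4:150913963-150915117, 22 fragments, fold enrichment 3.92) that also lay within 1000 bp of a start of Park7. Of the 16 genes, taking the strongest promoter peak of each, it was the only 1 that shared this peak with the start of another protein-coding gene, against 26.1% for all genes with a promoter peak. Tnfrsf4 (OX40) had no peak although its gene ends 9552 bp from Tnfrsf18. Tnfrsf8, the CD30 receptor, had a peak only in its body, 14713 bp from the nearest start, with a fold enrichment of 3.40.

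Of the receptors with a death domain, Tnfrsf1a and Fas had a promoter peak. Tnfrsf1a encodes the widely expressed receptor through which TNF signals, and its peak (chr6:125349181-125350250) held 21 fragments with a fold enrichment of 4.25. Another peak in its body had a fold enrichment of 2.88. The peak of Fas (chr19:34290731-34291260) held 15 fragments with a fold enrichment of 3.30. Tnfrsf10b, the TRAIL receptor, had 2 peaks in its body, the stronger with a fold enrichment of 4.16 and 2029 bp from a start. The death receptor Tnfrsf25 had a peak with a fold enrichment of 4.42 at its 3' end, where the summit lay in an untranslated region of Espn, and Tnfrsf21 (DR6) had no peak.

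Tnfrsf1b, which encodes the TNF receptor of leukocytes and endothelium, had more peaks than any other family gene. Its promoter peak (chr4:145246416-145247099) held 25 fragments, with a fold enrichment of 4.43 (interval 2.93 to 6.46) and a −log10 q of 7.10. Another 6 peaks lay in its body beyond the window, with fold enrichments from 2.90 to 3.76, the last of them in the untranslated region at the end of the gene, 32370 bp from the start. Its neighbour Tnfrsf8 lies 20267 bp away.

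Of the B cell receptors, Cd40 (chr2:165055797-165056600) had 17 fragments and a fold enrichment of 3.98. Tnfrsf13b, which encodes TACI, had the lowest value of the class, 2.56 (interval 1.47 to 4.17, 14 fragments, −log10 q 1.38). Its peak (chr11:61142943-61143444) counted through an internal start and its summit lay 16341 bp from the first start of the gene. Tnfrsf13c, the BAFF receptor, had a peak only at the end of its body (fold enrichment 3.54, 2389 bp from a start), and Tnfrsf17 (BCMA) had none. Promoter peaks were also found at Tnfrsf19 (chr14:61046218-61046553, 15 fragments, 3.54-fold) and at the mouse receptor gene Tnfrsf26 (chr7:143627945-143628221, 16 fragments, 2.83-fold). The decoys Tnfrsf22 and Tnfrsf23, next to Tnfrsf26, had no peak, nor did the decoy Tnfrsf11b (osteoprotegerin). Tnfrsf11a (RANK), Tnfrsf12a (the TWEAK receptor) and Ltbr, the lymphotoxin beta receptor, also had none. Ltbr lies between Cd27 and Tnfrsf1a, which both had promoter peaks, and its nearest peak was 35296 bp from its start.

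**Figure D2:**
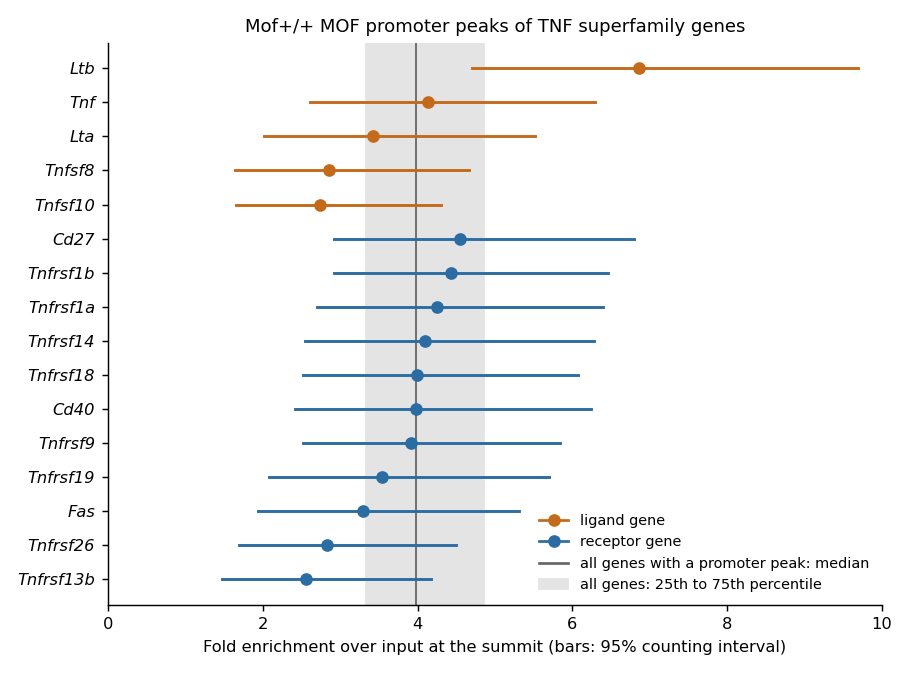
Fold enrichment over input at the summit of the Mof+/+ promoter peak of the 16 TNF superfamily genes that had one, with 95% counting intervals as bars. Ligand genes are in orange and receptor genes in blue. The line and the grey band give the median (3.98) and the 25th to 75th percentile (3.34 to 4.86) over all genes with a promoter peak. Only the Ltb value lies above the band, and the intervals of all genes but Ltb reach the median.

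The strongest promoter peak of each family gene was about as strong as that of other genes. The median fold enrichment was 3.95 (range 2.56 to 6.86) against 3.98 for all genes with a promoter peak. Ligands had a median of 3.43 (n = 5) and receptors one of 3.98 (n = 11), and their ranges overlapped. The median number of fragments at the summit was 18 against 19. The peaks were narrower, with a median width of 578.5 bp against 843 bp. Summits lay downstream of the nearest start in 14 of 16 genes against 60.4% of all genes, at a median of 139.5 bp against 59 bp. All 5 ligand summits were downstream. Tnfrsf14 and Tnfrsf26 were the exceptions among the receptors. The chromatin was partly cut with CviKI-1, an enzyme that cuts at RGCY, and this sequence occurred 22.1 times per kb in the family's peaks (median) against 25.2 for all genes. The part of these sites in the widths was not tested.

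**Figure D3:**
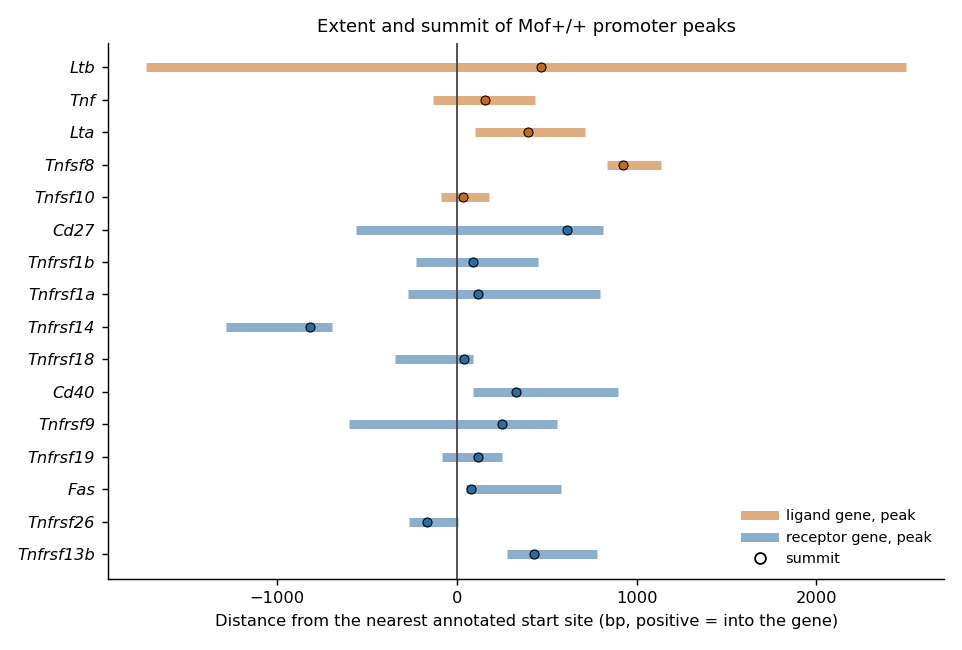
Extent (bars) and summit (circles) of the Mof+/+ promoter peak of each of the 16 genes, in bp from the nearest annotated start site, with positive values into the gene. Ligand genes are in orange and receptor genes in blue, in order of fold enrichment within each class. In 14 genes the summit lies downstream of the start, and the Ltb peak is the widest at 4231 bp.

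A promoter peak was found at 45.8% of receptors and 29.4% of ligands, a difference of 16.4 percentage points, against 42.7% of all genes. The receptor share was near that of all genes and the ligand share was lower. With classes of this size 1 gene is worth 5.88 points among the ligands and 4.17 among the receptors. Gene-body peaks were found in 15 of 24 receptors (62.5%) and 6 of 17 ligands (35.3%), against 43.2% of all genes. Receptor genes were longer, with a median of 17131 bp against 9600 bp for ligands. The part of length in the counts was not tested.

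The starts of both classes hold few CG pairs, the dinucleotide that is dense in the promoters of widely expressed genes. CG pairs were counted within 500 bp on either side of the first annotated start of a gene, while a peak at any start counted. Their median number was 22 for ligands and 33.5 for receptors, against 43 for all genes. Over all genes, a Mof+/+ promoter peak went with CG-rich starts: the median was 66 with a peak and 18 without. Within the TNF family the medians were 26.5 with a peak and 34 without. The receptors had 28 with a peak and 39 without, and the ligands 22 with a peak and 20.5 without. The ligand medians were close to each other.

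When all genes were split into 3 groups by CG pairs (at most 19, at most 61, and more), the share with a promoter peak was 11.6%, 45.3% and 72.5%. Family genes in the low group had a peak in 5 of 13 cases (38.5%). Of these, 4 were among 6 receptors (Cd27, Tnfrsf14, Tnfrsf18 and Tnfrsf26) and 1 was among 7 ligands (Tnfsf10). Tnfrsf26 had 5 CG pairs, the fewest in the family, and its peak also lay at a start of the noncoding gene E230032D23Rik. In the middle group ligands and receptors had the same share, 4 of 10 and 6 of 15 (40.0%). Of these receptors, Tnfrsf13b had its peak at an internal start, away from the start where its CG pairs were counted. By its first start alone it had no peak, so the equal shares depend on it. The high group held 3 receptors, of which Tnfrsf9 had a peak and Tnfrsf11a, with 81 CG pairs the richest start of the family, and Tnfrsf21 did not. If every family gene had the share of its CG group, 15.0 genes would have had a promoter peak, against the 16 found. On the same count the shares would have been 31.4% for ligands and 40.3% for receptors, a difference of 8.86 points. The counts in each CG group are small, and the part of CG content in the difference between ligands and receptors was not tested.

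**Figure D4:**
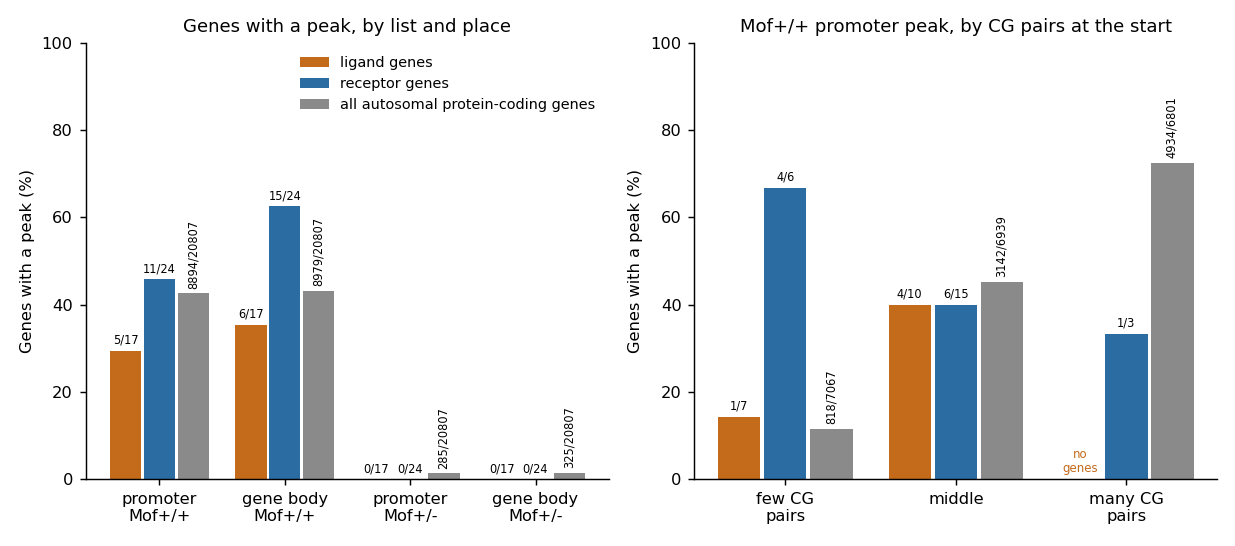
Left, percent of ligand genes (orange), receptor genes (blue) and all autosomal protein-coding genes (grey) with a promoter or gene-body peak in the Mof+/+ and the Mof+/- list. Right, percent with a Mof+/+ promoter peak in 3 groups of genes by CG pairs within 500 bp of the first start. Numbers over the bars are genes with a peak out of genes in the group, and in the low group 4 of 6 receptors stand against 11.6% of all genes.

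Known ligand and receptor partners were set side by side in a list that is not complete. Of 21 pairs, both partners had a promoter peak in 2, Tnf with Tnfrsf1a and Tnf with Tnfrsf1b. The receptor alone had one in 7 pairs, among them Fasl with Fas, Cd70 with Cd27 and Tnfsf9 with Tnfrsf9. The ligand alone had one in 3, Ltb with Ltbr, Tnfsf8 with Tnfrsf8 and Tnfsf10 with Tnfrsf10b. Neither partner had one in 9 pairs, which included Tnfsf11 with Tnfrsf11a, Tnfsf12 with Tnfrsf12a and Tnfsf4 with Tnfrsf4. The listed pairs do not hold Lta, which had a promoter peak and whose product also binds both TNF receptors. Several pairs share a partner and are not independent. Beside the shares of the classes, 29.4% of ligands and 45.8% of receptors, nothing particular to the pairs is read from these counts.

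Of 38 listed genes that carry the signal inside the cell, 33 (86.8%) had a Mof+/+ promoter peak, against 42.7% of all genes. They included all 8 adaptors (the TRAF genes on the list, Tradd and Fadd), 7 of 8 kinases, all 9 ubiquitin ligases and brakes such as Tnfaip3 and Cyld, and 7 of 8 NF-kB factors and inhibitors. Of the cell death genes, Casp8 and Cflar had a peak and the necroptosis genes Ripk3 and Mlkl did not, and the sheddase Adam17, which releases TNF, had 2 peaks in its body and none at its promoter. The highest fold enrichment, 7.93, was at Nfkbia, the inhibitor that NF-kB itself induces. The signalling genes have CG-rich starts (median 71), and at the shares of their CG groups 22.9 of them would have had a peak.

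In Mof+/- tissue, 0 of 41 family genes had a promoter peak. At the background share, 0.562 of a gene would have had one, so a count of 0 does not set the family apart. Of the 38 signalling genes, 1 (2.63%) had a Mof+/- promoter peak, the NF-kB subunit gene Rel, against 1.37% of all genes. The Mof+/- peak nearest to a family start (chr4:156032289-156032578, fold enrichment 4.16, 14 fragments) lay 3921 bp from the nearest annotated start of Tnfrsf18, beyond the end of the gene. It did not touch a Mof+/+ peak (chr4:156031104-156032050, fold enrichment 3.67) that ended 239 bp before it.

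The lists did not reach equally far down. Input background at summits went down to 3.52 fragments for Mof+/+ and 2.26 for Mof+/-, which is 1.56 times lower. In −log10 p, the peaks began at 3.25 for Mof+/+ and at 4.72 for Mof+/-. Of the 16 family genes with a Mof+/+ promoter peak, 12 (75.0%) had their strongest one past the weakest Mof+/- value, against 87.5% for all genes. After fragments and background were divided by that ratio, 8 (50%) were past it, against 52.8% for all genes. These were Ltb, Tnf, Cd27, Tnfrsf14, Tnfrsf18, Tnfrsf1a, Tnfrsf1b and Tnfrsf9. For the other 8 genes, a peak of the Mof+/+ strength did not pass on this scaling, in which scaled fragments were rounded down. Cd40 came closest, with 10.9 scaled fragments and a −log10 p of 4.60 against 4.72, and its outcome depends on the rounding. For the rest, a difference between genotypes was not detectable at this depth.

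Bulk adipose tissue holds many cell types. Against 42.7% of all genes, promoter peaks of the Mof+/+ list were present at 4 of 8 adipocyte markers (Adipoq, Plin1, Lipe and Pnpla2), 5 of 6 T cell markers, 1 of 6 macrophage markers, 1 of 4 endothelial markers and 1 of 4 fibroblast and progenitor markers. Cd3d, Cd3e and Cd3g, which define T cells, were among those with a peak, and Cd4, Pparg and Fabp4 were not. The B cell markers Cd79a, Cd79b, Ms4a1, Pax5 and Blnk also had one. The family genes with the highest enrichment, Ltb and Cd27, are known from lymphocytes. The part of lymphocytes in the peaks of Ltb, Cd27 and the costimulatory receptors was not tested.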

How the data were processed

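MOF ChIP-seq of visceral white adipose tissue was read from 2 peak lists, assigned to Mof+/+ and Mof+/- by their names. According to the study's methods, the authors mapped reads to GRCm38 with snakePipes and called peaks against input with MACS2 (version 2.1.1.20160309.3 per the submitters' processing notes) at a q-value of 0.1. The methods also merge peaks of a cell type within 1000 bp. Neighbouring peaks at or under that distance remained 3796 times for Mof+/+ and 148 times for Mof+/-, so the lists do not show that step. Whether replicates were pooled before calling is not given in the sources used here. The design text speaks of more Mof+/- animals than the labels. The deposited fold enrichment is a ratio, set by the authors' peak caller, of ChIP to input fragments at the summit. Each deposited −log10 p-value, like each −log10 q-value, belongs to that summit, and the summit offset served as a coordinate. The score column, H3 libraries and signal tracks were not used here.

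Peaks were joined to GENCODE M21 genes with Python 3.11.15. The number of fragments and the background were solved from fold enrichment and −log10 p (tolerance 0.001 on −log10 p), a step tested on simulated data, and 4 peaks in each list had no solution. A gene with several promoter peaks was given the value of the one with the highest −log10 p. Intervals of fold enrichment are exact 95% Poisson intervals on the fragments. No test was run over genes or peaks, which are not replicates. Every family gene was named once, those with a promoter peak with their values. Sequences were shown for Tnf, the highest fold enrichment of each class and, in place of Tnfrsf9 and Tnfrsf26, for Tnfrsf1b, Tnfsf10 and Tnfrsf18, chosen after their values were seen. The family, the signalling genes, the pairs and the cell type markers were chosen with earlier results of these data known. The count over the B cell marker list is not reported here. The alternatives varied the window, the q-value and p-value cutoffs, the start sites, the summit, and shared or read-through genes.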

Additional observations from a re-analysis of the deposited data

How the results depend on the processing

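Of 74 comparisons of a count, difference or median with its value under an alternative, 70 stayed within a set limit. The limit was 1.5 times the reported count or median, or a 95% interval of the reported difference. That interval takes genes as independent draws, which they are not, so staying within it says little about the difference. The difference between receptors and ligands did not change sign. At a q-value of at most 0.001, promoter peaks were left at 10 family genes (24.4%, all genes 32.7%). These were 2 ligands (11.8%) and 8 receptors (33.3%). Gene-body peaks were left at 12 family genes, and the share over all genes at that cutoff was not computed. With Mof+/+ peaks held to the weakest Mof+/- p-value, 3 ligands (17.6%) and 9 receptors (37.5%) were left, against 37.4% of all genes. The receptor share stayed above the ligand share in every alternative, by 12.3 to 23.0 percentage points. Within 3 kb of a start, 20 family genes (48.8%) had a promoter peak against 44.6% of all genes, which turns the order of the family and all genes. Tnfsf13, Tnfrsf10b, Tnfrsf13c and Tnfrsf25 joined. Of these, Tnfsf13 joined through the peak at the start of Senp3, and Tnfrsf25 through the peak with its summit in Espn. Tnfrsf13c joined through the peak at the end of its body. With the first start site of each gene only, an alternative chosen after seeing the data, 15 family genes (36.6%) were left, against 39.6% of all genes. Tnfrsf13b was lost. The Mof+/- count was 0 in every alternative run. Of these alternatives only the 3 kb window could have raised it from 0, and these comparisons are among the 70 above. No paired analysis was possible because the columns of the 2 peak lists carry no replicate number, and leaving out a replicate was not possible for the same reason. With 14 to 30 fragments at the family's promoter summits, the counting interval of every fold enrichment but that of Ltb included the median of all genes.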

Other observations

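Some relatives of the family fall outside the choice by symbol or lie on the X chromosome. Relt, a receptor gene of the superfamily on chromosome 7, had 2 promoter peaks and 3 gene-body peaks for Mof+/+ and 0 for Mof+/-. The strongest Relt promoter peak (chr7:100862660-100863363) held 24 fragments, with a fold enrichment of 5.53 and a −log10 q of 9.0, above all family genes but Ltb. Cd40lg, which encodes the CD40 ligand, Eda and Eda2r on the X chromosome and Edar and Ngfr on autosomes had no peak within 1000 bp of a start or in the gene body in either list. The peak in the body of Tnfsfm13 also lay at the start of Tnfsf13os, an antisense transcript.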
